A study of Arabidopsis thaliana with 8 samples.

Results

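AT1G47400, the gene of a short peptide of the iron-deficiency response, and PYE (POPEYE, locus AT3G47640), a basic helix-loop-helix (bHLH) regulator of the same response, were followed across 8 Affymetrix ATH1 arrays of whole Arabidopsis thaliana plants. These are 2 genes, each read by 1 probe set (261684_at and 252427_at), of 22746 gene probe sets on the array, 13513 of which name 1 gene. Plants of 4 lines were grown at 1 or 12.5 mM CaCl2, with a single array for each line at each dose: a lab calcicole, a lab calcifuge and 2 wild ecotypes, of which one came from high and the other from low soil pH (the high-pH and the low-pH wild line). Calcicoles thrive in calcareous ground, whereas calcifuges shun it. All groups shared sterile sand, 0.5X Long Ashton nutrient solution, a growth room at 22 °C and 55% humidity, and 10-hour days. The sample titles name the wild lines by soil pH only. Class comparisons here count the high-pH line as calcicole and the low-pH line as calcifuge. Each class is thus represented by 1 laboratory and 1 wild line, so a difference between lines concerns those lines. The labels used here give neither the accession names, nor the plants' age, nor how many plants went into an array.

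The genes were chosen by their CaCl2 difference, the contrast between 12.5 and 1 mM in these signals: AT1G47400 was among the genes higher at 12.5 mM in all 4 lines, and PYE belonged to an iron list examined in the same contrast. Their difference between doses is therefore given as a description, without a test. Differences between lines were not part of that choice and were tested. Differences between lines in the size of the CaCl2 response were also fitted. They are built from the same 4 changes that the choice drew on, so their p-values are not independent of it.

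Plants short of iron switch on a set of genes for uptake, transport and regulation. Short peptides, known as IRON MAN or FEP peptides, act early in this response in roots and shoots. They bind BRUTUS-type ubiquitin ligases, which otherwise mark some of the bHLH activators for degradation. The bHLH activators, among them bHLH34, bHLH104, bHLH115 and ILR3, raise the transcription of the peptide genes, of other bHLH genes and of PYE. PYE in turn represses genes of iron transport and storage, and its loss makes plants sensitive to low iron. Iron is poorly soluble in lime-rich soil of high pH, where iron shortage is a common limit on growth.

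Values are signal intensities on a linear scale. Differences are on the log2 scale after adding 2.507, with the standard error (SE) of a limma fit across 13648 tested probe sets. limma draws each probe set's variance towards that common to all of them, so an SE is not that of the gene's own values alone. Array medians lay at 42.4 to 47.8. Across tested probe sets, the 2 arrays of a line correlated at 0.92 to 0.95, those of both lab or both wild lines at 0.83 to 0.94, and lab against wild arrays at 0.82 to 0.91. Markers of roots and leaves were read beside the whole-plant label. Of 15 root markers, the 2 named on the array were PYK10, a beta-glucosidase abundant in roots, at 49.2 to 829.9, and the root hair expansin EXPA7, at 12.1 to 33.8. Of 15 leaf markers, the 5 named had summed signals of 10886 to 20752. EXPA7, below every array median, was the one of these 7 that did not pass the filter on low signals. With PYK10 left as the only tested root marker, these signals do not decide whether the label holds.

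The peptide gene AT1G47400 was higher at 12.5 than at 1 mM in each of the 4 lines, but by very different amounts. In the calcicole lab line its signal was 35.7 at 1 mM and 669.9 at 12.5 mM, an 18.8-fold ratio. In the calcifuge lab line it was 39.0 and 84.1, a ratio of 2.15. The high-pH wild line had 104 and 323, a ratio of 3.09. The low-pH wild line had 159 and 947, a ratio of 5.95. The lab lines thus started at nearly the same signal at 1 mM, below both wild lines, and at 12.5 mM the calcicole lab line lay above the high-pH wild line while the calcifuge lab line stayed below the low-pH wild line's 1 mM value. The dose groups overlap across lines, since 84.1 at 12.5 mM in the calcifuge lab line is lower than 104 and 159 at 1 mM in the wild lines. Every array at 12.5 mM lay above every array at 1 mM for 1.34% of tested probe sets, and AT1G47400 was not one of them.

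**Figure D1:**
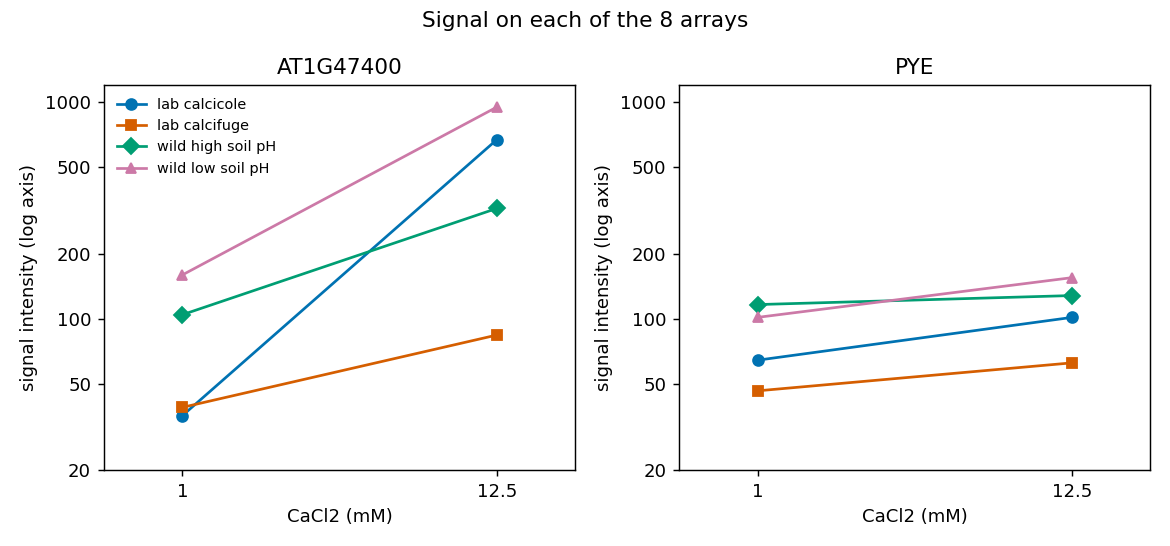
Signal intensity (log axis) of AT1G47400 and PYE at 1 and 12.5 mM CaCl2, 1 point per array, joined within each line. AT1G47400 spans 35.7 to 947 and PYE 46.5 to 155. The order of lines differs between doses for both genes, in PYE through the wild lines alone, and both wild lines lie above the calcifuge lab line at each dose.

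On the log2 scale the changes of AT1G47400 were 4.14 in the calcicole lab line, 1.06 in the calcifuge lab line, 1.61 in the high-pH wild line and 2.55 in the low-pH wild line, with a mean of 2.34 ± 0.45 (SE, 4 lines). Ranked from the highest among the 13648 tested probe sets, these changes stood at places 9, 375, 34 and 13. Only 7 probe sets, 0.0513% of those tested, had a smallest change over the 4 lines at least as large as that of AT1G47400. That share restates the choice of the gene. The standard deviation of the 4 changes was 1.35. From that spread alone, the SE of the mean would be larger than the limma SE. Of the sum of squares of its 8 log2 signals, 51.8% lay between doses, 35.2% between lines and 12.9% in the remainder. With 1 array per line and dose, an unequal response of the lines and noise between arrays cannot be told apart in that remainder.

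PYE spanned a narrower range than AT1G47400, and a larger share of its own variation lay between lines. In the calcicole lab line its signal was 64.4 at 1 mM and 101.45 at 12.5 mM, and in the calcifuge lab line it was 46.5 and 62.6. In the high-pH wild line it was 116 and 128, and in the low-pH wild line 101.51 and 155. Each line was higher at 12.5 mM, with log2 changes of 0.63, 0.41, 0.14 and 0.60 in the order just given, a mean of 0.44 ± 0.15 (SE, 4 lines) and a standard deviation of 0.23. A smallest change at least as large as that of PYE was found for 511 probe sets, 3.74% of those tested. Of its sum of squares, 79.7% lay between lines, 16.9% between doses and 3.34% in the remainder.

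The first comparison open to a test asked whether the lab lines differ from the wild lines. PYE was lower in the lab lines, by -0.88 ± 0.15 on the log2 scale, or 1.84-fold (limma adjusted p 0.0145, 4 arrays of each origin), with a 95% confidence interval of -1.23 to -0.52. The arrays of each origin are those of 2 lines, so they are not separate replicates of an origin. The SE, p and interval rest on departures of lines from a shared dose effect, with the variance drawn by limma towards that of all tested probe sets. They do not measure the spread between lines of an origin, and the difference concerns these lines. All 4 lab arrays lay below all 4 wild arrays, but the highest lab value, 101.45 in the calcicole at 12.5 mM, all but met the lowest wild value, 101.51 in the low soil pH line at 1 mM. Such lower lab signals are common in these data: 7.72% of tested probe sets passed the threshold as lower in the lab lines, 15.9% passed in either direction, and 7.85% had every lab array below every wild array. The adjusted p was 0.0842 without the calcifuge lab line, 0.0527 without the high-pH wild line and 0.0556 without the low-pH wild line. It was 0.052 without the calcicole lab array at 1 mM, 0.0615 without the low-pH wild array at 12.5 mM and 0.0619 with no filter on low signals.

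AT1G47400 leaned the same way, at -1.46 ± 0.45, but did not pass the threshold (limma adjusted p 0.0654, 95% confidence interval -2.51 to -0.42). Its lab and wild arrays overlap, because the calcicole lab line at 12.5 mM had 669.9. Without that array the difference was -2.06 (adjusted p 0.0243), without both calcicole lab arrays it was -2.17 (adjusted p 0.0228), and without the calcifuge lab array at 1 mM it was -1.89 (adjusted p 0.0336). Leaving out the whole calcifuge lab line gave the smallest difference, -0.76.

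The leaf markers differed between the same arrays. Their summed signal was 10886 to 17151 in the lab lines and 18945 to 20752 in the wild lines, which do not overlap. Of the 5 leaf markers, the Calvin cycle genes PRK (-1.0, limma adjusted p 0.0131) and SBPASE (-1.16, limma adjusted p 0.0114) were lower past the threshold in the lab lines. With no filter on low signals their adjusted p was 0.0582 and 0.0554, without the calcicole lab line 0.0941 and 0.0746, and without the high-pH wild line 0.0676 and 0.0549. Without the 12.5 mM array of the high-pH wild line it was 0.0578 and 0.0507, and without that of the low-pH wild line 0.0549 and 0.0502. PRK was also lost without the calcicole lab array at 12.5 mM (0.0538). Root marker sums were 70.8 to 842.0 in the lab lines and 158 to 356 in the wild lines. The part of either in the difference of PYE was not tested. In whole plants, fewer cells of a type and less RNA per cell cannot be told apart, and between lines a sequence variant under the probes and a different RNA level cannot be told apart either.

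**Figure D2:**
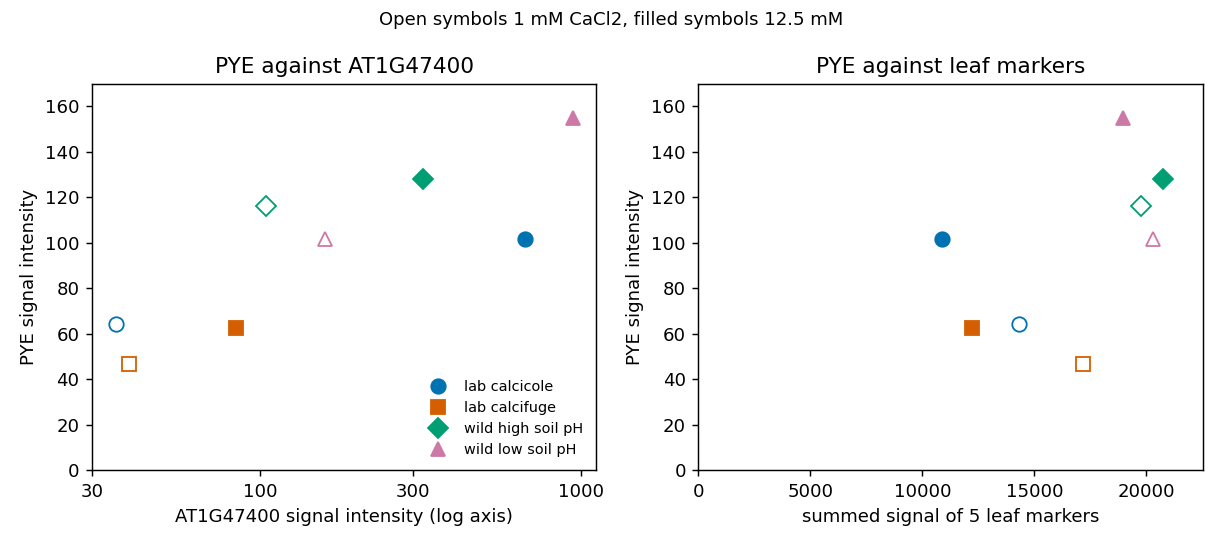
PYE signal on each array against AT1G47400 signal (log axis, left) and against the summed signal of 5 leaf markers (right), with open symbols for 1 mM and filled symbols for 12.5 mM CaCl2. The 4 wild arrays have PYE signals of 101.51 to 155 and the 4 lab arrays 46.5 to 101.45.

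The order of the lines was then taken pair by pair, over 6 pairs, each adjusted over all tested probe sets. Averaged over both doses on the log2 scale and turned back to signal, PYE was 125 in the low-pH wild line, 122 in the high-pH wild line, 80.9 in the calcicole lab line and 54.0 in the calcifuge lab line. No neighbours in this order differed past the threshold: the wild lines differed by -0.04 ± 0.22 (high minus low soil pH, limma adjusted p 0.985, 95% interval -0.54 to 0.46), the calcicole lab line and the high-pH wild line by -0.58 ± 0.22 (adjusted p 0.126), and the lab lines by 0.56 ± 0.22 (calcicole minus calcifuge, adjusted p 0.176). The ends of the order did differ. PYE was 2.20-fold lower in the calcifuge lab line than in the high-pH wild line (-1.14 ± 0.22, limma adjusted p 0.0307) and 2.26-fold lower than in the low-pH wild line (-1.18 ± 0.22, limma adjusted p 0.0393). Among all tested probe sets, 5.77% and 2.46% passed in these 2 comparisons, 2.35% and 0.857% as lower in the calcifuge lab line.

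Both of those PYE calls were lost with no filter on low signals (adjusted p 0.103 and 0.12) and without single arrays. Against the high-pH wild line, the adjusted p was 0.0834 and 0.132 without the calcifuge lab array at 1 or 12.5 mM, and 0.166 and 0.0941 without the high-pH wild array at 1 or 12.5 mM. Against the low-pH wild line, it was 0.0954 and 0.175 without the calcifuge lab array at 1 or 12.5 mM, and 0.133 and 0.244 without the low-pH wild array at 1 or 12.5 mM. That second call was also lost without either calcicole lab array (0.0643) and without either high-pH wild array (0.0566).

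AT1G47400 had the same order, at 389, 184, 158 and 57.5, from the low-pH wild line to the calcifuge lab line. None of its 6 pairs passed the threshold. The widest gap was between the calcifuge lab line and the low-pH wild line, at -2.71 ± 0.63 (limma adjusted p 0.0742, 95% interval -4.19 to -1.23), and this passed without the calcicole lab line (adjusted p 0.0306). The lab lines differed by 1.42 ± 0.63 (calcicole minus calcifuge, limma adjusted p 0.232). The calcicole was higher at 12.5 mM, at 669.9 against 84.1, but slightly lower at 1 mM, at 35.7 against 39.0. Without the calcicole array at 12.5 mM the fitted difference was 0.22, and without that at 1 mM it was 2.62. Those 2 fits take the dose effect from the other lines. The wild lines differed by -1.07 ± 0.63 (high minus low soil pH, limma adjusted p 0.725), and by -0.58 without the high-pH wild array at 12.5 mM. For comparison, 4.53% of tested probe sets passed between the lab lines, 0.330% between the wild lines, and 9.36% and 8.54% between the calcicole lab line and the high- or low-pH wild line.

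**Figure D3:**
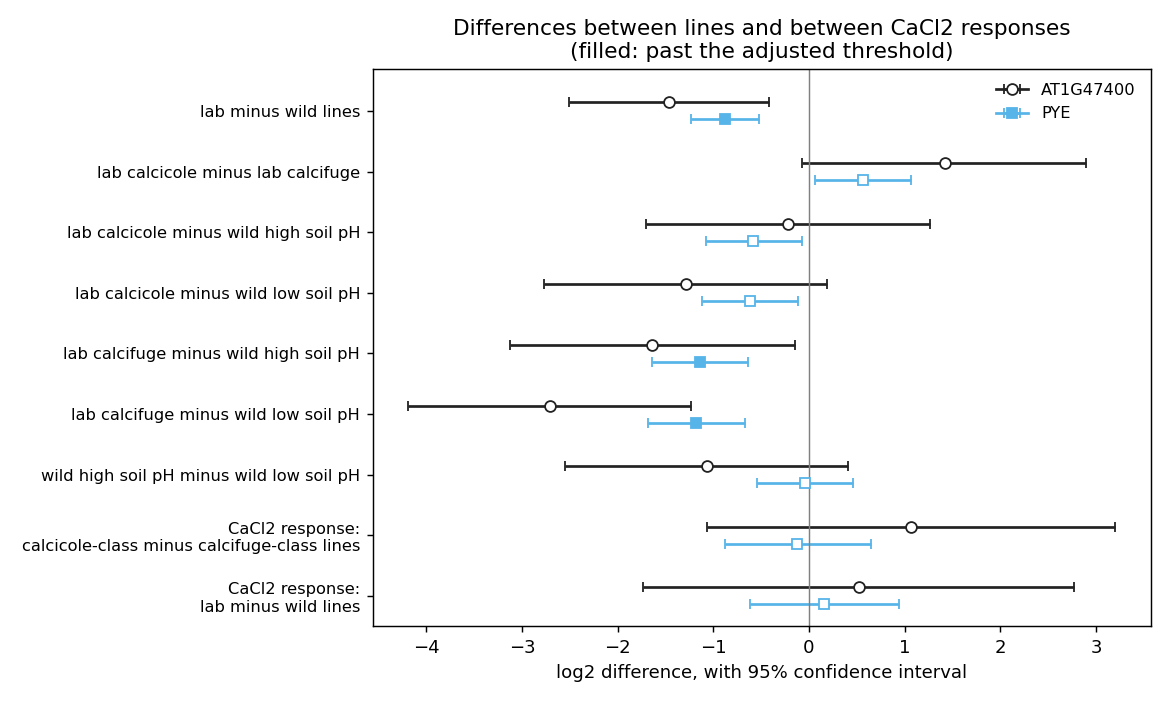
Log2 differences of AT1G47400 (circles) and PYE (squares) between lines and between CaCl2 responses, with 95% confidence intervals of the limma fits; filled symbols passed the adjusted threshold. Only 3 comparisons are filled, all of PYE: lab minus wild lines, and the calcifuge lab line against each wild line.

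The study's question of whether lime-adapted and lime-avoiding lines respond differently to CaCl2 was addressed by the difference in response between the calcicole-class lines (calcicole lab line and high-pH wild line) and the calcifuge-class lines (calcifuge lab line and low-pH wild line). For AT1G47400 the mean change was 2.87 in the calcicole class and 1.81 in the calcifuge class, a difference of 1.07 ± 0.88 (limma adjusted p 0.884, 95% interval -1.07 to 3.20). Lines of one class did not resemble each other: the calcicole class holds 4.14 and 1.61, and the calcifuge class 1.06 and 2.55. Without the calcicole lab line the difference was -0.20. For PYE it was -0.12 ± 0.32 (limma adjusted p 0.973, 95% interval -0.88 to 0.65), and 0.13 without the high-pH wild line.

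A further comparison set the responses of the lab lines against those of the wild lines. AT1G47400 had mean changes of 2.60 in the lab and 2.08 in the wild lines, a difference of 0.52 ± 0.94 (limma adjusted p 0.999, 95% interval -1.73 to 2.77), which was -1.02 without the calcicole lab line. PYE had a difference of 0.16 ± 0.32 (limma adjusted p 0.999, 95% interval -0.62 to 0.94), which was -0.07 without the high-pH wild line. The intervals for AT1G47400 allow differences of several fold either way, and would be wider from this gene's own changes alone. Neither response comparison called any probe set in limma (0%), and at an unadjusted p under 0.05 the counts were 804 (5.89%) and 687 (5.03%).

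The pair was then set beside the rest of the iron pathway. Of 66 loci listed from general knowledge, 16 are named on the array, with 17 probe sets, and 14 loci passed the filter on low signals, AT1G47400 and PYE included. The platform names used here pair no probe set with the uptake genes IRT1 and FRO2, with the regulator FIT or with the ferritin genes. For the other 12 tested genes the median CaCl2 difference was 0.16, against 0.01 over all tested probe sets. In limma 0 of 12 passed the threshold and 1 had an unadjusted p under 0.05; over all tested probe sets 0.0147% passed, all of them lower at 12.5 mM, and 13.0% had an unadjusted p under 0.05.

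AT5G05250, entered in the list as a gene induced by iron shortage, was the gene with that unadjusted p. Its signal was 32.3 and 177 in the calcicole lab line, 45.6 and 48.0 in the calcifuge lab line, 100.5 and 113 in the high-pH wild line, and 56 and 176 in the low-pH wild line. It was higher at 12.5 mM in all 4 lines, a pattern that 10.6% of tested probe sets share, with a mean of 1.05 ± 0.38 (limma adjusted p 0.312), which was 0.61 without the calcicole lab line. As with AT1G47400, its largest changes were in the calcicole lab line (2.37) and the low-pH wild line (1.61), and its changes in the other lines were 0.07 and 0.16.

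The bHLH activators that act above PYE and the peptide genes had small CaCl2 differences, none past the threshold. These were 0.29 ± 0.18 for bHLH34, 0.14 ± 0.17 for bHLH104, -0.08 ± 0.16 for ILR3, -0.03 ± 0.16 for bHLH115 and -0.08 ± 0.21 for bHLH121, with limma adjusted p of 0.55 to 0.961. Between origins, bHLH104 was higher in the lab lines (1.09 ± 0.17, limma adjusted p 0.0117), opposite to PYE. Its signals were 145 and 137 in the calcicole lab line and 147 and 209 in the calcifuge lab line, against 72 and 61.3 in the high-pH wild line and 69.2 and 90.6 in the low-pH wild line. The call was lost without the high-pH wild line (adjusted p 0.0562), without its 12.5 mM array (0.0507) and with no filter (0.056). Over all tested probe sets 8.18% passed as higher in the lab lines. The iron-responsive regulator bHLH101 was too low to be tested, at 2.23 to 20.9.

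Among loci entered as BRUTUS-like ubiquitin ligases, AT1G74770 had a CaCl2 difference of 0.58 ± 0.28 (limma adjusted p 0.436), with changes of 1.47 in the calcicole lab line, 0.93 in the low-pH wild line, 0.20 in the high-pH wild line and -0.27 in the calcifuge lab line. Its other probe set was at 0.41 to 1.33 and was not tested. AT1G18910 was at 0.24 ± 0.15 (limma adjusted p 0.544) and positive in all 4 lines.

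Genes entered in the list for coumarin secretion, by which roots mobilise iron at high pH, showed no common CaCl2 difference. AT3G13610 was at 0.21 ± 0.41, AT3G12900 at 0.18 ± 0.29 and BGLU42 at 0.12 ± 0.18 (limma adjusted p 0.827 to 0.882). AT3G13610 went from 76.0 to 215 in the calcicole lab line and from 168 to 291 in the low-pH wild line, but from 283 to 106 in the high-pH wild line, and was 364 and 355 in the calcifuge lab line. AT3G12900 had changes of 1.16 and 0.52 in the calcicole lab line and the low-pH wild line, and of -0.30 and -0.68 in the calcifuge lab line and the high-pH wild line. BGLU42 was higher in the lab than in the wild lines (0.65 ± 0.18, limma adjusted p 0.0495), a call lost under 15 of 19 alternatives; its difference was 0.27 without the high-pH wild line.

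AT3G07720, entered as a kelch gene that responds to iron shortage, was at 0.06 ± 0.33 (limma adjusted p 0.965), with changes of 0.81 and 0.95 in the calcicole lab line and the low-pH wild line, and of -0.54 and -0.98 in the calcifuge lab line and the high-pH wild line. AT3G58060, entered as a metal transporter, did not pass the filter and had signals of 5.99 to 56.9.

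Taken by line, 9 of the 12 tested genes beside the pair were higher at 12.5 mM in the calcicole lab line, with a median change of 0.62, and 8 of 12 in the low-pH wild line, with a median of 0.43. In the calcifuge lab line 6 of 12 were higher, with a median of 0.02, and in the high-pH wild line 4 of 12, with a median of -0.10. Over all tested probe sets 48.7%, 47.7%, 55.8% and 51.7% were higher in these lines in the order given, and the medians were -0.01, -0.03, 0.06 and 0.01. Increases of 1 or more were found for 4 of 12 in the calcicole lab line (3.28% of all tested) and 1 of 12 in the low-pH wild line (2.95% of all tested), and a decrease of 1 or more for 1 of 12 in the high-pH wild line, AT3G13610 at -1.39 (3.07% of all tested). Without the calcicole lab line the list's median CaCl2 difference was 0.01, without the low-pH wild line 0.06, and without the high-pH wild line 0.32. For 6 of the 12 genes the changes in the calcicole lab line and the low-pH wild line were both above those in the other 2 lines, and for the other 6 they were not. Over all tested probe sets the share was 12.8%. The 2 lines with the larger list medians are also those with the larger changes of AT1G47400, and they are 1 lab and 1 wild line, 1 of each class. This grouping was noticed in these values and was not tested.

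**Figure D4:**
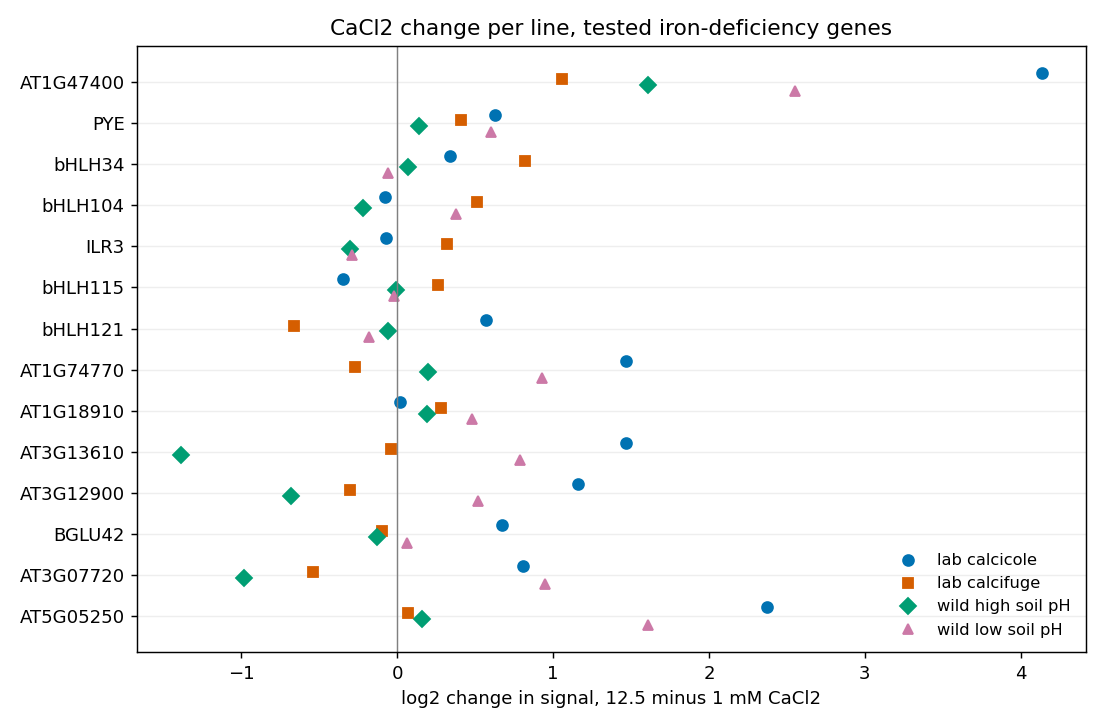
Log2 change from 1 to 12.5 mM CaCl2 in each of the 4 lines for the 14 tested genes of the iron-deficiency list. AT1G47400 is to the right of 0 in every line, and for AT1G74770, AT3G13610, AT3G12900, BGLU42, AT3G07720 and AT5G05250 the calcicole lab line and low-pH wild points lie to the right of the other 2, which is not so for the other 6 genes beside the pair.

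The root marker PYK10 was also higher at 12.5 mM in all 4 lines (1.17 ± 0.29, limma adjusted p 0.169), with changes of 2.00 and 1.74 in the lab lines and 0.44 and 0.53 in the wild lines. The other root marker named, EXPA7, did not pass the filter on low signals. Its changes were 0.00 and -1.30 in the calcicole and calcifuge lab lines, and -0.02 and -0.34 in the high-pH and low-pH wild lines. Root marker sums were 70.8 to 280.3 at 1 mM and 205 to 842.0 at 12.5 mM. The calcifuge lab line had the highest root sum at 12.5 mM and the lowest AT1G47400 signal there. In the calcicole lab line, high-pH wild line and low-pH wild line the 12.5 mM root sums were 225, 205 and 356. Over these lines alone, the sums had the same order as the AT1G47400 signals at that dose, and PYK10 made up most of each sum. Between the lab lines, PYK10 was lower in the calcicole than in the calcifuge (-2.14 ± 0.41, limma adjusted p 0.035). That call was lost under 5 of 17 alternatives, and 4.53% of tested probe sets passed in that comparison. Leaf marker sums were 14318 to 20271 at 1 mM and 10886 to 20752 at 12.5 mM. The part of either organ in the CaCl2 difference of AT1G47400 was not tested.

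Over the 8 arrays the log2 signals of AT1G47400 and PYE correlated at 0.83 (Pearson) and 0.76 (Spearman). Without the 2 arrays farthest from the median of AT1G47400 the Pearson value was 0.86 over 6 arrays. At each dose alone, over 4 lines, it was 0.87 at 1 mM and 0.86 at 12.5 mM. The arrays share lines and doses. Both genes were chosen with the CaCl2 contrast known and were higher at 12.5 mM in every line, which favours a positive value. Among 3609 probe sets that name 1 gene and span at least 1 on the log2 scale, PYE was at place 29 in likeness to AT1G47400, and AT1G47400 at place 145 in likeness to PYE. The 4 CaCl2 changes of the genes correlated at 0.70.

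By Pearson correlation over the 8 arrays, the genes most like AT1G47400 were the glycosyltransferase UGT76E11 (0.96), AT5G02640 (0.96), AT5G50110 (0.95), AT3G15650 (0.93) and AT1G19140 (0.93). AT5G05250 of the iron list came next, at 0.93 and place 6, with a Spearman value of 0.95. The most opposite were AT4G16660 (-0.99), ATERDJ3B, a co-chaperone of the endoplasmic reticulum (-0.96), and AT5G14540 (-0.94). For PYE the most alike were AT1G68570 (0.98), AFR, an F-box gene of far-red light signalling (0.98), AT5G52420 (0.98), AT3G14067 (0.97) and AT5G56520 (0.96), and the most opposite AT2G30600 (-0.97), AT5G18590 (-0.96) and AT1G16670 (-0.96). bHLH104 was at -0.75 with PYE. By Spearman correlation 3 of the 5 genes most like AT1G47400 were the same and 0 of the 5 most like PYE. With 8 arrays that share lines and doses, these values describe the pattern only.

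Genes next to the pair on the chromosome gave a local comparison. In the TAIR10.1 gene order AT1G47400 lies beside AT1G47395, another peptide gene of the list, which is paired with no probe set here. Whether 261684_at also binds its transcript was not tested. The nearest neighbour with a tested probe set, AT1G47380, had CaCl2 changes of 1.15, 0.11, 0.33 and -0.06 in the calcicole lab line, calcifuge lab line, high-pH wild line and low-pH wild line. Beside PYE, AT3G47630 had changes of 0.41, -0.02, 0.31 and -0.38, and AT3G47650 changes of 0.06, -0.80, 0.38 and 0.15. Neither of these direct neighbours was positive in all 4 lines, but AT3G47610, 3 genes away, was, with changes of 0.02 to 0.28.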

How the data were processed

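RNA of whole plants was measured on 8 ATH1 arrays. Each array's deposited file gives 1 signal intensity for each probe set, from MAS5 per the submitters' processing notes; version, settings and detection calls are not given in the sources used here. The values were already scaled between arrays. Removing 64 controls from 22810 probe sets left 22746. Before log2, 2.507 was added (the 10th percentile of all signals), and a filter on mean log2 signal dropped the lowest 40%, which left 13648. limma 3.58.1 in R 4.3.3 fitted terms for line and dose (3 residual degrees of freedom, or 2 where an interaction was added), with Benjamini-Hochberg adjustment over the tested probe sets and a threshold of 0.05. With 1 array per line and dose, the spread is the departure of lines from a shared dose effect. limma's eBayes step draws each probe set's variance towards that of all tested probe sets. SEs, intervals and p-values rest on the resulting variance and measure no other spread. Precision is limited by the number of arrays. The fits were tested on simulated data.

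Names come from the platform table (8730 probe sets are unnamed here) and TAIR10.1. All list genes with a named probe set are named; likeness names the 5 most alike and 3 most opposite genes. The members and lists were chosen with earlier results of these data known. Alternatives covered scaling, pseudocount, filter, variance trend, the line term, and each line or array left out. Figures used matplotlib 3.10.9.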

Additional observations from a re-analysis of the deposited data

Results flagged for a closer look

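bHLH34 had 1 array apart from the others. At 1 mM its signal in the calcifuge lab line was 47.8, against 89.0 to 98.1 in the other 3 lines, and this gap made up 0.862 of the range of the 4 log2 values. This is past Dixon's critical value for 4 values at 95%, which chance passes in about 1 of 20 such sets. Here 42 sets from 14 iron genes were examined and 1 passed.

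bHLH104 had CaCl2 changes of opposite sign in the classes. They were -0.08 in the calcicole lab line and -0.22 in the high-pH wild line, and 0.51 in the calcifuge lab line and 0.38 in the low-pH wild line, a difference of -0.59. The interaction did not pass in limma (adjusted p 0.812).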

How the results depend on the processing

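With lines or arrays left out, the CaCl2 difference was 1.74 to 2.77 for AT1G47400 and 0.38 to 0.55 for PYE. Every line's change was positive for both genes, so the sign could not turn there. Leaving out 1 array gave the same difference as leaving out its line. Other settings gave 2.14 to 2.37 for AT1G47400 and 0.38 to 0.47 for PYE. The median of the other iron genes stayed between 0.01 and 0.32. For lab minus wild lines, leaving out lines or arrays gave -2.17 to -0.76 for AT1G47400 and -1.16 to -0.60 for PYE; with no filter PYE stayed at -0.88 with an adjusted p of 0.0619, where more probe sets are adjusted over. Left-out lines or arrays turned the sign of the following, none of which had passed. The class difference in response ranged from -0.20 to 2.33 for AT1G47400 and from -0.37 to 0.13 for PYE. The lab minus wild difference in response ranged from -1.02 to 2.06 and from -0.07 to 0.39. The wild line difference of PYE ranged from -0.24 to 0.17, and the calcicole lab line minus high-pH wild line difference of AT1G47400 from -1.42 to 0.98. Fits without a line or array have fewer samples; the cause was otherwise not tested.

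Counts past the threshold moved more. For CaCl2 the count was 2, against 0 to 41 under other settings and 0 to 78 with lines or arrays left out. For lab minus wild lines it was 2169, against 460 with no filter and 518 to 2240 with lines or arrays left out; between the lab lines 618, against 129 and 123 to 509; between the wild lines 45, against 12 and 9 to 46. Without the high-pH wild line the class difference in response called 5, and without the low-pH wild line the origin difference called 1. The line term already pairs the 2 doses of each line; without it the CaCl2 differences were the same, with SEs of 0.76 for AT1G47400 and 0.35 for PYE. By replicate number, no paired analysis was possible because every array carries the same one. Signals near the pseudocount, such as those of bHLH101, limit what can be read of the low iron genes.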
